A study of Mus musculus with 27 samples.

Results

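Liver RNA of etomoxir-treated mice 48 h after partial hepatectomy (PHx48_ETO, n = 4) was compared with that of etomoxir-treated mice 24 h after the operation (PHx24_ETO, n = 4). These 8 libraries, picked by their sample labels alone, belong to a set of 27, and 12376 genes that reached 1 FPKM in 4 or more of the 27 were tested. FPKM here is a fragment count scaled to gene length and to a size factor of its library. All mice were wild-type C57/BL6J, and 70% of the liver was resected in both groups. Etomoxir was given intraperitoneally at 12.5 mg/kg, 4 h before resection in both groups and once more 24 h after resection in PHx48_ETO. The groups therefore differ in time and in the number of doses, which cannot be told apart. The same step in time without etomoxir (PHx48, n = 7, over PHx24, n = 7) and sham-operated livers (n = 5) served for comparison. Whether mice without etomoxir received a vehicle, and whether each library came from a separate mouse, is not stated, so p-values measure the spread between libraries.

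After removal of liver lobes the remaining hepatocytes leave quiescence, copy their DNA in a first wave and divide in a wave that follows it, while the acute phase response to surgery fades. Etomoxir inhibits the carnitine palmitoyltransferase of the outer mitochondrial membrane, the step that commits long-chain fatty acids to oxidation. Etomoxir is also known as an activator of the fatty acid receptor PPARA in liver.

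The 8 libraries held 15165292 to 18446372 counts. All 14 hepatocyte markers were tested, and their summed level was 43963.5 to 54999.4 FPKM in PHx48_ETO and 34940.8 to 43860.9 FPKM in PHx24_ETO. Alb alone averaged 29561.4 ± 3302.4 FPKM in PHx48_ETO and 16223.1 ± 1971.3 FPKM in PHx24_ETO. Over the 14 genes 1 rose and 2 fell (7.14% and 14.3%, against 7.31% and 7.73% of all genes), 3 had a positive log2 fold change and the median was -0.26. PHx24_ETO was the more scattered group: pairwise correlations of log2 levels were 0.9676 to 0.9823 in PHx48_ETO and 0.9256 to 0.9874 in PHx24_ETO. PHx24_ETO 2 lay farthest out on the first principal component of the 8 libraries (43.4% of the variance), and PHx24_ETO 1 held more cell cycle transcripts than the rest of its group. Results that rest on either are given with and without it. Skeletal muscle transcripts were highest in PHx48_ETO 4, with a summed level of 98.4 FPKM over 15 markers. The sum was 0.481 to 98.4 FPKM in PHx48_ETO, with a median of 7.61 FPKM. In PHx24_ETO it was 0.406 to 0.995 FPKM, and 8 of the 15 were at 0 in every library. The 13 tested muscle genes had a median log2 fold change of 8.16, none called, and 5.92 without PHx48_ETO 4. The part of such tissue in the results was not tested.

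Between the groups 1862 genes (15% of those tested) passed edgeR's quasi-likelihood test at an adjusted p under 0.05. It is the test behind every adjusted p below unless another is named. Of these, 905 were higher (7.31%) and 957 lower (7.73%) in PHx48_ETO, and the change was at least 2-fold for 400 (3.23%) and 219 (1.77%). The 4 PHx48_ETO libraries all lay above the 4 of PHx24_ETO for 965 genes (7.8%), 714 of them called (5.77%), and all below for 954 (7.71%), 645 of them called (5.21%). Scaled to library totals in place of TMM factors, the split was 1376 higher and 474 lower, with the median log2 fold change of all genes at 0.10 in place of -0.01. With the 8 libraries fitted alone, 336 genes were higher and 284 lower. Among called genes, those of cell division had some of the largest rises, and metallothionein and acute phase genes some of the largest falls. Most genes named below were picked from called genes whose groups did not overlap. For those, the call and the lack of overlap are part of the choice and add no support. The values show how far apart the libraries were.

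**Figure D1:**
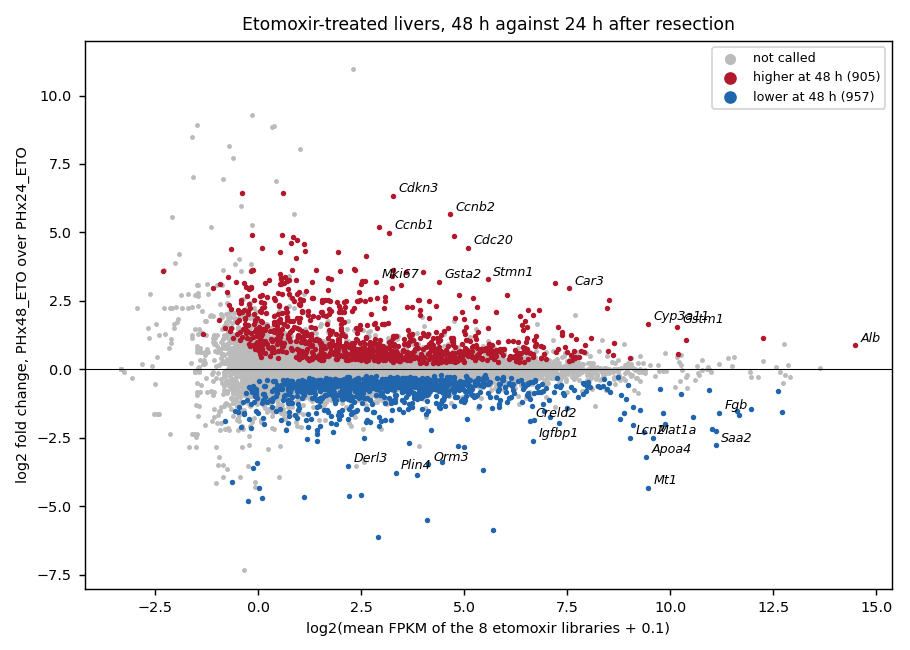
Log2 fold change of each tested gene, PHx48_ETO over PHx24_ETO (vertical axis), against its mean level in the 8 libraries as log2(FPKM + 0.1) (horizontal axis), with called genes coloured. The 905 higher genes reach farther from 0 at low to middle levels, where Cdkn3, Ccnb2 and Ccnb1 lie, and the 957 lower genes include abundant transcripts such as Fgb, Saa2, Apoa4 and Mt1.

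Genes of mitosis and cytokinesis rose almost as a whole. Of 50 tested genes 47 rose and none fell, with a median log2 fold change of 2.78 against -0.01 for all genes. At an unadjusted p under 0.05 none fell either, and DESeq2 called 48 higher and none lower. The exceptions, named after their values were seen, were Pttg1, Sgo1 and Top2a, with positive log2 fold changes of 0.39, 1.67 and 1.77 that did not pass. The mean log2(FPKM + 1) of the list was 2.89, 2.77, 3.20 and 2.74 in PHx48_ETO, against 1.79, 0.29, 0.53 and 0.69 in PHx24_ETO. Every PHx48_ETO library stood above every PHx24_ETO library, and PHx24_ETO 1 stood above the other 3 of its group. Without PHx24_ETO 1, 49 of the 50 rose and the median was 4.60. Fitted on the 8 libraries alone, 21 rose. In bulk tissue, fewer cells of a type and less RNA per cell cannot be told apart.

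Ccnb2 encodes cyclin B2, which activates the mitotic kinase Cdk1 (ENSMUSG00000032218, GRCm38 chromosome 9, 70407692 to 70421547). It measured 47.6, 50.3, 67.4 and 30.1 FPKM in PHx48_ETO, against 2.81, 0.199, 0.199 and 0.575 FPKM in PHx24_ETO. Even the lowest 48 h library was far above PHx24_ETO 1, the highest at 24 h, and the log2 fold change was 5.67 (SE 0.63, adjusted p = 2.69e-06). The sham level was 1.07 ± 0.345 FPKM, and 3 of the 4 PHx24_ETO libraries lay below that mean. Ccnb1, the other main mitotic B cyclin, had 17.2, 15.9, 26.8 and 9.1 FPKM in PHx48_ETO, against 1.91, 0.0, 0.0868 and 0.128 FPKM in PHx24_ETO. PHx24_ETO 2 held no reads of it, and the groups did not overlap (log2 fold change 4.99 (SE 0.79, adjusted p = 0.000137), and 7.92 without PHx24_ETO 1).

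Cdkn3 encodes a dual-specificity phosphatase that acts on cyclin-dependent kinases (ENSMUSG00000037628, GRCm38 chromosome 14, 46760541 to 46771669). It had the largest rise among called genes with separate groups and more than a few reads, predicted models aside. Its levels were 15.6, 20.3, 27.7 and 12.2 FPKM in PHx48_ETO, against 0.323, 0.0772, 0.335 and 0.2 FPKM in PHx24_ETO. Every library at 24 h was below 1 FPKM, near the sham level of 0.175 ± 0.11 FPKM, and the log2 fold change was 6.33 (SE 0.50, adjusted p = 9.92e-09). Cdc20, the activator of the anaphase-promoting complex, was chosen after its values were seen and measured 61.1, 62.9, 89.3 and 46.1 FPKM in PHx48_ETO, against 8.54, 0.196, 1.54 and 1.63 FPKM in PHx24_ETO. Its groups were apart (log2 fold change 4.44 (SE 0.71, adjusted p = 0.000146)).

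Mki67, the proliferation antigen that coats mitotic chromosomes, gave 11.1, 12.1, 17.4 and 11.5 FPKM in PHx48_ETO, against 4.54, 0.0364, 0.346 and 0.726 FPKM in PHx24_ETO. PHx24_ETO 1 and PHx48_ETO 3 were the high libraries of their groups, which did not overlap (log2 fold change 3.20 (SE 0.70, adjusted p = 0.00256), and 5.17 without PHx24_ETO 1). The call was lost with the 8 libraries fitted alone (adjusted p = 0.0993). Pimreg, a regulator of the metaphase to anaphase step, had 232 counts in all PHx48_ETO libraries and 2 in all PHx24_ETO libraries, a depth-scaled ratio of 105.4 (95% exact counting interval 28.9 to 875.8). Obox8, of an oocyte homeobox family, had 236 counts at 48 h and 2 at 24 h, a ratio of 107.3 (29.4 to 890.8). These intervals cover counting error only. Knstrn, a kinetochore and spindle protein, averaged 14.7 ± 6.17 FPKM in PHx48_ETO and 0.394 ± 0.47 FPKM in PHx24_ETO (SD, n = 4 each), and Cdca3, a trigger of mitotic entry, 52.3 ± 15.4 FPKM in PHx48_ETO and 1.78 ± 2.49 FPKM in PHx24_ETO. Knstrn shares exon bases with Gm14091. Both pairs of groups were apart, with PHx24_ETO 1 the highest 24 h library for each gene, and the log2 fold changes were 5.20 and 4.86 (adjusted p = 1.44e-06 and 1.9e-05).

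Promoters of the mitotic genes are shown because their called members share short sequences. The cell cycle homology region (CHR, searched as TTTGAA) and the CCAAT box (searched as CCAAT) are known elements of mitotic promoters, bound by the DREAM and MuvB complexes with B-MYB and FOXM1 and by NF-Y. Windows of 300 bases, 250 before and 50 after the RefSeq gene start (GRCm38.p6), were searched on both strands. A CHR was found in 33 of 42 windows (78.6%) of the called mitosis genes, 39 of 47 of which had a window, and in 12.3% of all 11118 windows of tested genes. For CCAAT the shares were 76.2% and 38.1%, and for both together 64.3% and 5.01%. A match is a description of the letters and not a binding site. Capitals below mark TTTGAA or CCAAT, read on either strand.
Ccnb2 (chr9:70421505-70421804, minus strand): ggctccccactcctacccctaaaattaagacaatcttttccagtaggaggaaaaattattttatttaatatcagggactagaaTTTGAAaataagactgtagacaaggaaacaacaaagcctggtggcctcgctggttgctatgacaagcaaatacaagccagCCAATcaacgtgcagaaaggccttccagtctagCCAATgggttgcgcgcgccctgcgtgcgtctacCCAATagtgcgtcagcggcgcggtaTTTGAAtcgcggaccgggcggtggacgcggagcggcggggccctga
Cdkn3 (chr14:46760291-46760590, plus strand): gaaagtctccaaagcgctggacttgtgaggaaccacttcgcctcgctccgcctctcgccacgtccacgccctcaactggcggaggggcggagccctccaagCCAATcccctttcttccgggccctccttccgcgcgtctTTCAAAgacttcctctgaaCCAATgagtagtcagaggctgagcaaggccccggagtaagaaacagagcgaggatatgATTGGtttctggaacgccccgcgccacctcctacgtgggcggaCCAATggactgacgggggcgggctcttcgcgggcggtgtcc
Cdc20 (chr4:118437294-118437593, minus strand): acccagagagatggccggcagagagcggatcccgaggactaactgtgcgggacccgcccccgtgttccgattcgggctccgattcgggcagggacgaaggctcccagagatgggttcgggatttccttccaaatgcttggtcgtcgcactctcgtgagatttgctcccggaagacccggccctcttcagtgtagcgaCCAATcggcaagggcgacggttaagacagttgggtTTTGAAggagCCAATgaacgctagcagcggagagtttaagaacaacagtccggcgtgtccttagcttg
Ccnb1 (chr13:100786437-100786736, minus strand): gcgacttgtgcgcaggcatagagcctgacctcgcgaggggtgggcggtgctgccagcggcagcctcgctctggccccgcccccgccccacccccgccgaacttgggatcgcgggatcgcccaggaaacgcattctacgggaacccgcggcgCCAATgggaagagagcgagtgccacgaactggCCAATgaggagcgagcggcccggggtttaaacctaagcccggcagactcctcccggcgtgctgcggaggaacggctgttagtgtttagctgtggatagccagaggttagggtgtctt
Ccnb2 holds both elements several times in its own direction, Cdkn3 holds the CHR as its reverse complement, and Ccnb1 holds CCAAT but not these 6 CHR letters in this window.

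Foxm1, the transcription factor of the G2 and M programme, averaged 4.8 ± 0.685 FPKM in PHx48_ETO and 0.825 ± 1.24 FPKM in PHx24_ETO (log2 fold change 2.53 (SE 0.60, adjusted p = 0.00524)). The log2 fold change was 4.57 without PHx24_ETO 1, and the call was lost with the 8 libraries fitted alone (adjusted p = 0.118), while DESeq2 gave no adjusted p. Stmn1, which encodes the microtubule-destabilizing protein stathmin, had 80.1, 90.2, 98.4 and 76 FPKM in PHx48_ETO, against 23.9, 1.94, 3.62 and 5.7 FPKM in PHx24_ETO. The 48 h libraries were close together and all 24 h libraries lower, with PHx24_ETO 1 nearest (log2 fold change 3.29 (SE 0.50, adjusted p = 0.000101)). Of 14 tubulin and stathmin genes 4 rose (28.6%, against 7.31% of all genes) and 2 fell (14.3%, against 7.73%), with a median of -0.03. Tuba1b, the alpha tubulin of dividing cells, rose by 1.13 on the log2 scale. Tuba4a, an alpha tubulin of resting cells, fell, averaging 48.4 ± 5.05 FPKM in PHx48_ETO and 77.4 ± 9.36 FPKM in PHx24_ETO (log2 fold change -0.66 (SE 0.14, adjusted p = 0.00265)). Tuba4a overlaps exons of Stk16, so its reads are uncertain.

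Among 18 histone and chromatin genes 8 rose (44.4%, against 7.31% of all genes) and 1 fell (5.56%, against 7.73%), with a median of 0.62. The rises were 5 without PHx24_ETO 3 and 2 with the 8 libraries fitted alone, and no gene fell without PHx24_ETO 3 or PHx48_ETO 3. H2afz, the histone variant H2A.Z, measured 125.8, 141.7, 197.4 and 147.7 FPKM in PHx48_ETO, against 59.7, 17.7, 25.7 and 32.7 FPKM in PHx24_ETO, with no overlap (log2 fold change 2.18 (SE 0.27, adjusted p = 7.93e-06)). Hmgb2, a DNA-bending chromatin protein of dividing cells, rose by 1.65 on the log2 scale (adjusted p = 0.00311), a call lost with the 8 libraries fitted alone (adjusted p = 0.0736). Outside the list, the linker histone gene H1fx averaged 3.5 ± 1.13 FPKM in PHx48_ETO and 0.123 ± 0.178 FPKM in PHx24_ETO (log2 fold change 4.73 (SE 0.58, adjusted p = 8.82e-06)). Hist1h3g and Hist1h4c, replication-dependent histone genes whose transcripts mostly lack poly(A) tails, were counted at low levels in these polyA RNA libraries, 119 and 83 counts over PHx48_ETO and 4 and 20 over PHx24_ETO. The call of Hist1h4c was lost without PHx24_ETO 2, PHx24_ETO 4, PHx48_ETO 1 or PHx48_ETO 2.

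Few genes that copy DNA were called. Of 37 DNA replication genes 1 rose (Gins2, named after its values were seen, a subunit of the GINS complex of the replicative helicase, log2 fold change 1.22, adjusted p = 0.0396) and 1 fell, with a median of -0.09. These are 2.7% each, against 7.31% and 7.73% of all genes. The median was 0.01 with library totals, 0.19 on the TPM scale and 0.50 without PHx24_ETO 1. Without PHx24_ETO 1, 6 rose and 1 fell, and without PHx24_ETO 2, 5 fell. The call of Gins2 was lost without any 1 library but PHx24_ETO 1, and with the 8 libraries fitted alone. Mcm5, a subunit of the replicative helicase, had 13.1, 8.38, 15.1 and 10 FPKM in PHx48_ETO, against 32.8, 1.79, 8.89 and 10.9 FPKM in PHx24_ETO. PHx24_ETO 1 was the highest and PHx24_ETO 2 the lowest of the 8, the groups overlapped fully, and the log2 fold change was -0.22 (SE 0.48, adjusted p = 0.815). All 8 were above the sham mean of 0.965 ± 0.287 FPKM. The gene that fell was Pold2, a subunit of DNA polymerase delta, with 6.16, 6.78, 9.41 and 6.98 FPKM in PHx48_ETO, against 11.9, 10.5, 12.6 and 11 FPKM in PHx24_ETO and no overlap (log2 fold change -0.64 (SE 0.15, adjusted p = 0.00566)). In nucleotide synthesis Cad, which starts pyrimidine synthesis, and Mthfd2, of mitochondrial folate metabolism, fell, with log2 fold changes of -0.97 and -1.06 (adjusted p = 0.000302 and 0.00235), while Tyms, of thymidylate synthesis, rose by 1.22 (adjusted p = 0.016, named after its values were seen). Of the 20 genes in that list 2 rose and 2 fell (10% each, against 7.31% and 7.73% of all genes). The rises were 7 without PHx24_ETO 1, 1 without PHx24_ETO 3, PHx24_ETO 4 or PHx48_ETO 3, 5 on the TPM scale and 0 with the 8 libraries fitted alone.

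Of 20 cell cycle regulators 1 rose (Foxm1, 5% against 7.31% of all genes) and 3 fell (15% against 7.73%), with a median of -0.15. Without PHx24_ETO 1, 3 rose and 2 fell with a median of 0.28, and 1 fell with library totals, on the TPM scale or with the 8 libraries fitted alone. Ccnd1, cyclin D1, which drives the entry into the cycle, averaged 25.6 ± 12.2 FPKM in PHx48_ETO and 29.1 ± 3.85 FPKM in PHx24_ETO, against 4.76 ± 2.57 FPKM in sham, and the step between the times did not pass (log2 fold change -0.17 (SE 0.37, adjusted p = 0.821), with exons shared with Oraov1). The D cyclin gene Ccnd3 and the kinase gene Cdk6, its partner, both fell, with log2 fold changes of -0.60 and -0.47 (adjusted p = 0.00132 and 0.0121). Ccnd3 shares exon bases with Bysl. Of 21 CDK inhibitor and p53 target genes 6 rose (28.6%, against 7.31% of all genes). Cdkn2d and Cdkn2c, inhibitors of the D cyclin kinases, rose by 1.85 and 1.71 on the log2 scale (adjusted p = 0.00184 and 0.00495). Both calls were lost with the 8 libraries fitted alone (adjusted p = 0.0711 and 0.0809). Cdkn1a, the p21 inhibitor, which shares exon bases with AC167363.2, had 26.9, 21, 25.1 and 21.1 FPKM in PHx48_ETO, against 12, 42.7, 9.34 and 11.4 FPKM in PHx24_ETO. With all 8 libraries the groups overlapped and the change did not pass (log2 fold change 0.33 (SE 0.35, adjusted p = 0.59)). Without PHx24_ETO 2 the 48 h libraries were all higher, and the log2 fold change was 1.12 (adjusted p = 0.00677). Phlda3, a p53-induced repressor of AKT signalling, rose by 2.55 (adjusted p = 0.0195), a call lost without PHx24_ETO 2, PHx24_ETO 3 or PHx24_ETO 4.

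**Figure D2:**
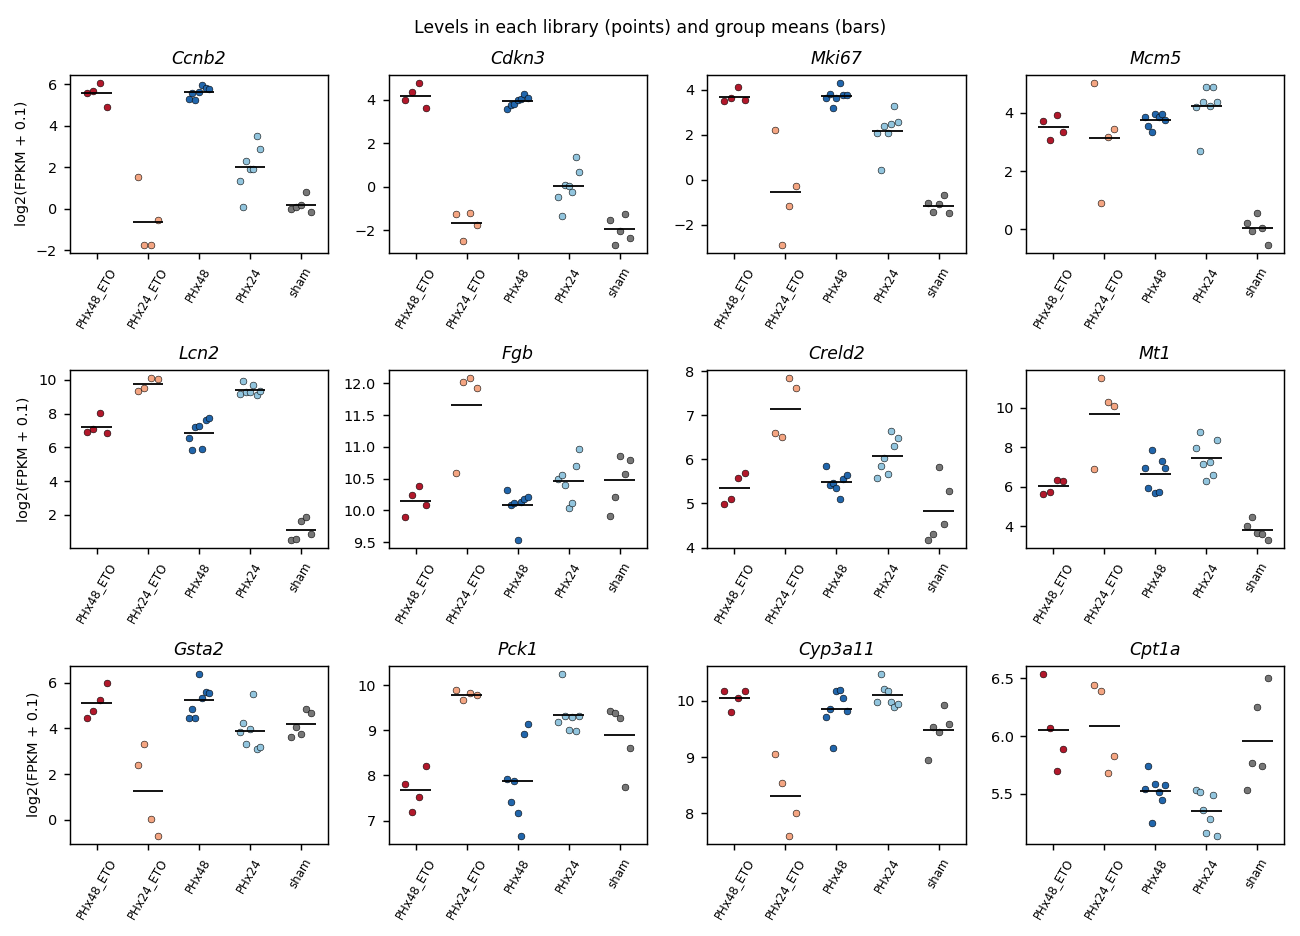
Levels of 12 genes as log2(FPKM + 0.1) (vertical axis) in each library (points) of the 5 groups (horizontal axis), with group means as bars. In PHx48_ETO and PHx24_ETO, Ccnb2, Cdkn3, Mki67, Gsta2 and Cyp3a11 are higher at 48 h, Lcn2, Fgb, Creld2, Mt1 and Pck1 are lower, and Mcm5 and Cpt1a overlap.

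The acute phase response was much lower at 48 h. Of 30 positive acute phase genes, whose products liver cells secrete or use in response to injury, 25 fell and none rose, with a median log2 fold change of -1.60. None rose at an unadjusted p under 0.05, and DESeq2 called 27 lower and none higher. The list holds Mt1, Mt2 and Hamp, described with the metal genes. The list level was 6.85, 7.13, 7.30 and 7.07 in PHx48_ETO, against 7.98, 8.43, 9.12 and 8.90 in PHx24_ETO, as mean log2(FPKM + 1). PHx24_ETO 1 was the lowest 24 h library but still above all 48 h libraries. Lcn2, which encodes the iron-chelator-binding lipocalin (ENSMUSG00000026822, GRCm38 chromosome 2, 32384633 to 32388252), had 119.2, 134.3, 259.8 and 114.7 FPKM in PHx48_ETO, against 651.0, 745.2, 1101.7 and 1064.9 FPKM in PHx24_ETO. The groups were far apart, with PHx48_ETO 3 the high library at 48 h (log2 fold change -2.49 (SE 0.39, adjusted p = 0.000111)), and the 48 h levels were still above the sham mean of 2.16 ± 0.992 FPKM. Summed neutrophil markers, a further source of Lcn2, were 4.03 to 6.21 FPKM in PHx48_ETO and 4.26 to 11.1 FPKM in PHx24_ETO over 12 genes, and Ly6g was at 0 in PHx48_ETO. Their part in the fall was not tested.

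Serum amyloid A genes fell likewise: Saa2 had 381.9, 717.6, 729.1 and 408.4 FPKM in PHx48_ETO, against 2187.6, 1047.5, 6906.7 and 5244.8 FPKM in PHx24_ETO. PHx24_ETO 2 was the lowest 24 h library and lay above every 48 h library (log2 fold change -2.77 (SE 0.54, adjusted p = 0.000937)). Saa1 fell, with a log2 fold change of -2.25 (adjusted p = 0.00186), and reads of these near-identical genes may be split between them. Hp, encoding the haemoglobin scavenger haptoglobin, averaged 3391.6 ± 1048.1 FPKM in PHx48_ETO and 10007.6 ± 4414.1 FPKM in PHx24_ETO, and Orm1, encoding the plasma carrier orosomucoid, 2139.8 ± 434.0 FPKM in PHx48_ETO and 5862.2 ± 1871.2 FPKM in PHx24_ETO (SD, n = 4 each). Their log2 fold changes were -1.55 (SE 0.32, adjusted p = 0.00143) and -1.44 (SE 0.24, adjusted p = 0.000228). Orm3 of the same family fell, with a log2 fold change of -3.47 (adjusted p = 0.000393), with PHx24_ETO 2 at 80.3 FPKM above the rest of its group.

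The 3 fibrinogen chains moved together. Fgb, the beta chain, measured 950.7, 1208.3, 1338.7 and 1093.2 FPKM in PHx48_ETO, against 1543.6, 4177.0, 4338.9 and 3890.4 FPKM in PHx24_ETO. The 24 h libraries formed 3 high values and PHx24_ETO 1 nearer to the 48 h range, without overlap (log2 fold change -1.59 (SE 0.26, adjusted p = 0.000175)). Fga and Fgg, the alpha and gamma chains, had log2 fold changes of -1.66 (SE 0.27, adjusted p = 0.000195) and -1.51 (SE 0.25, adjusted p = 0.000247). In sham livers Fgb averaged 1463.4 ± 382.2 FPKM. Serpina3k, an abundant serine protease inhibitor that shares exon bases with Serpina3m, averaged 4554.9 ± 863.2 FPKM in PHx48_ETO and 7987.7 ± 1536.5 FPKM in PHx24_ETO (log2 fold change -0.80 (SE 0.20, adjusted p = 0.00845)).

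Metallothionein genes had some of the deepest falls. Of 22 genes for metallothioneins, carbonic anhydrases and iron 4 rose (18.2%, against 7.31% of all genes) and 6 fell (27.3%, against 7.73%). Mt1, the metal-binding metallothionein (ENSMUSG00000031765, GRCm38 chromosome 8, 94179082 to 94180327), had 50.2, 53.9, 82.1 and 78.7 FPKM in PHx48_ETO, against 117.2, 2906.6, 1263.1 and 1085.2 FPKM in PHx24_ETO. All 48 h libraries were below all 24 h libraries, but the 24 h values spread widely, with PHx24_ETO 1 close to the 48 h range and PHx24_ETO 2 the highest. The log2 fold change was -4.33 (SE 0.70, adjusted p = 0.000163), and -3.62 without PHx24_ETO 2. The sham level was 14.4 ± 4.74 FPKM. Mt2, its neighbour, was named after its values were seen and had a log2 fold change of -4.66 (adjusted p = 0.00364). Hamp, the gene of hepcidin, which blocks iron export from cells, had 804.2, 692.3, 886.0 and 621.4 FPKM in PHx48_ETO, against 2769.1, 5373.9, 3080.5 and 2301.0 FPKM in PHx24_ETO. The groups did not overlap and the log2 fold change was -2.16 (SE 0.64, adjusted p = 0.0225), but the call was lost without PHx24_ETO 2, PHx48_ETO 2 or PHx48_ETO 4. Car3, an abundant carbonic anhydrase of liver, muscle and fat, rose: it had 197.1, 260.5, 281.8 and 586.4 FPKM in PHx48_ETO, against 107.9, 25.7, 20.8 and 16.2 FPKM in PHx24_ETO. Its highest value was in PHx48_ETO 4, the library with most muscle transcripts. Without that library the log2 fold change was 2.53 (adjusted p = 0.0156), against 2.96 (SE 0.68, adjusted p = 0.00371) with it. Leaving it out does not remove muscle, whose tested genes still had a median log2 fold change of 5.92.
The Mt1 promoter is shown with metal response elements, sites of the zinc-sensing factor MTF1, searched as their cores TGCGCNC and TGCACNC on both strands. Either core stood in 35.4% of all windows, and Mt1 holds 3 copies, in capitals.
Mt1 (chr8:94178839-94179138, plus strand): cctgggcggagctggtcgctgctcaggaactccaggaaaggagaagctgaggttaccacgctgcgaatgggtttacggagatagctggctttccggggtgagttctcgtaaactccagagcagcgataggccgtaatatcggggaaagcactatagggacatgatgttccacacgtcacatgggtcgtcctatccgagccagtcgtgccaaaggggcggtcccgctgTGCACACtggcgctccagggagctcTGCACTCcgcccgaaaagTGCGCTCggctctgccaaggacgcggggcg

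Genes of protein folding in the endoplasmic reticulum fell. Of 23 chaperone and unfolded protein response genes 14 fell (60.9%, against 7.73% of all genes), with a median of -0.74. The count was 9 without PHx24_ETO 3, PHx24_ETO 4 or PHx48_ETO 2, and 8 with the 8 libraries fitted alone. Creld2, an ER-stress-inducible disulfide isomerase (ENSMUSG00000023272, GRCm38 chromosome 15, 88819646 to 88826683), had 31.8, 34.3, 47.6 and 51.6 FPKM in PHx48_ETO, against 96.9, 90.1, 228.8 and 194.5 FPKM in PHx24_ETO. PHx24_ETO 3 and PHx24_ETO 4 were the high libraries and no values overlapped (log2 fold change -1.87 (SE 0.33, adjusted p = 0.000336)). Sdf2l1, a co-chaperone of BiP, and Hyou1, a nucleotide exchange chaperone, fell, with log2 fold changes of -1.85 and -1.42 (adjusted p = 0.000158 and 0.000292). Outside the list, Derl3, which helps move misfolded proteins out of the ER, averaged 0.697 ± 0.367 FPKM in PHx48_ETO and 8.12 ± 4.62 FPKM in PHx24_ETO (log2 fold change -3.52 (SE 0.57, adjusted p = 0.000163)). Hspa5, the gene of BiP itself, was named after its values were seen and had 230.3, 244.6, 340.6 and 253.8 FPKM in PHx48_ETO, against 326.6, 438.4, 542.6 and 464.3 FPKM in PHx24_ETO. PHx48_ETO 3 overlapped PHx24_ETO 1, and the log2 fold change was -0.72 (SE 0.23, adjusted p = 0.0346).

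The ER stress response element, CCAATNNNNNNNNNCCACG, is known to bind NF-Y and ATF6. It was found in 6 of 12 windows (50%) of the 14 called ER genes and in 16 of all 11118 windows (0.144%). Its first 5 letters also count as a CCAAT box. Capitals mark it in 2 promoters, in Creld2 as its reverse complement.
Creld2 (chr15:88819396-88819695, plus strand): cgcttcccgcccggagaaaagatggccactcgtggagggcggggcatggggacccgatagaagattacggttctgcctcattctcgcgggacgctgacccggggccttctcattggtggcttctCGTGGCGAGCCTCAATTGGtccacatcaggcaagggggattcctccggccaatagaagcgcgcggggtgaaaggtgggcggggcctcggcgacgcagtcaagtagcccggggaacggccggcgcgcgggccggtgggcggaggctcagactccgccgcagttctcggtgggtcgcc
Hspa5 (chr2:34771840-34772139, plus strand): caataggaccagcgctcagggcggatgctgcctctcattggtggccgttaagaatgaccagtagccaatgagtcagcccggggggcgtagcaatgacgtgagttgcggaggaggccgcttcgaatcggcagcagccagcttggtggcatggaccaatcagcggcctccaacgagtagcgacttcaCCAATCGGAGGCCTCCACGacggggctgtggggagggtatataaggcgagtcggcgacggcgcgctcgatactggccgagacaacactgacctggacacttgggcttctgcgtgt

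Among 18 targets of ATF4, the transcription factor of the integrated stress response, 6 fell (33.3%, against 7.73% of all genes), with a median of -0.77. The falls were 3 on the TPM scale and 2 with the 8 libraries fitted alone. Asns, asparagine synthetase, had 1.59, 1.07, 1.37 and 1.6 FPKM in PHx48_ETO, against 5.77, 4.75, 7.36 and 5.12 FPKM in PHx24_ETO. The groups were well apart (log2 fold change -2.01 (SE 0.56, adjusted p = 0.0148)). Psat1, of serine synthesis, averaged 1.05 ± 0.13 FPKM in PHx48_ETO and 4.4 ± 5.74 FPKM in PHx24_ETO, of which 13 FPKM came from PHx24_ETO 2, and its log2 fold change was -2.05, or -0.53 without that library (adjusted p = 0.457). The call was also lost without PHx48_ETO 4. Fgf21, a hormone made by liver under fasting and stress, had 1.28, 0.662, 1.36 and 0.722 FPKM in PHx48_ETO, against 8.05, 29.6, 2.95 and 1.78 FPKM in PHx24_ETO. Its groups did not overlap, with PHx24_ETO 2 far above the rest, and the change did not pass (log2 fold change -3.38 (SE 1.21, adjusted p = 0.0589)). Amino acid transporter genes fell in 7 of 18 cases (38.9%, against 7.73% of all genes), and in 4 without PHx24_ETO 3, PHx24_ETO 4 or PHx48_ETO 3. One of them, Slc25a22, a mitochondrial glutamate carrier, averaged 44.2 ± 4.82 FPKM in PHx48_ETO and 91.6 ± 11.9 FPKM in PHx24_ETO (log2 fold change -1.04 (SE 0.23, adjusted p = 0.00325)).

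Ribosome biogenesis genes fell in 12 of 25 cases (48%, against 7.73% of all genes) with a median of -0.35. The count was 7 without PHx48_ETO 4 and 5 on the TPM scale. Rrp12 and Nop2, which mature ribosomal RNA, fell, with log2 fold changes of -0.96 and -0.84 (adjusted p = 0.000387 and 0.00101), and PHx24_ETO 2 had the highest level of both. Median log2 fold changes were -0.06 for 26 cytosolic ribosomal protein genes, 0.17 for 22 TCA cycle genes and 0.13 for 13 mitochondrially encoded genes. Of 30 proteasome genes 2 fell (6.67%, against 7.73% of all genes), but 4 rose and none fell with library totals and 3 rose and none fell on the TPM scale. The falls were 0 without PHx24_ETO 3, PHx24_ETO 4 or PHx48_ETO 2, 1 without PHx24_ETO 2 or PHx48_ETO 1 and 6 without PHx24_ETO 1.

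**Figure D3:**
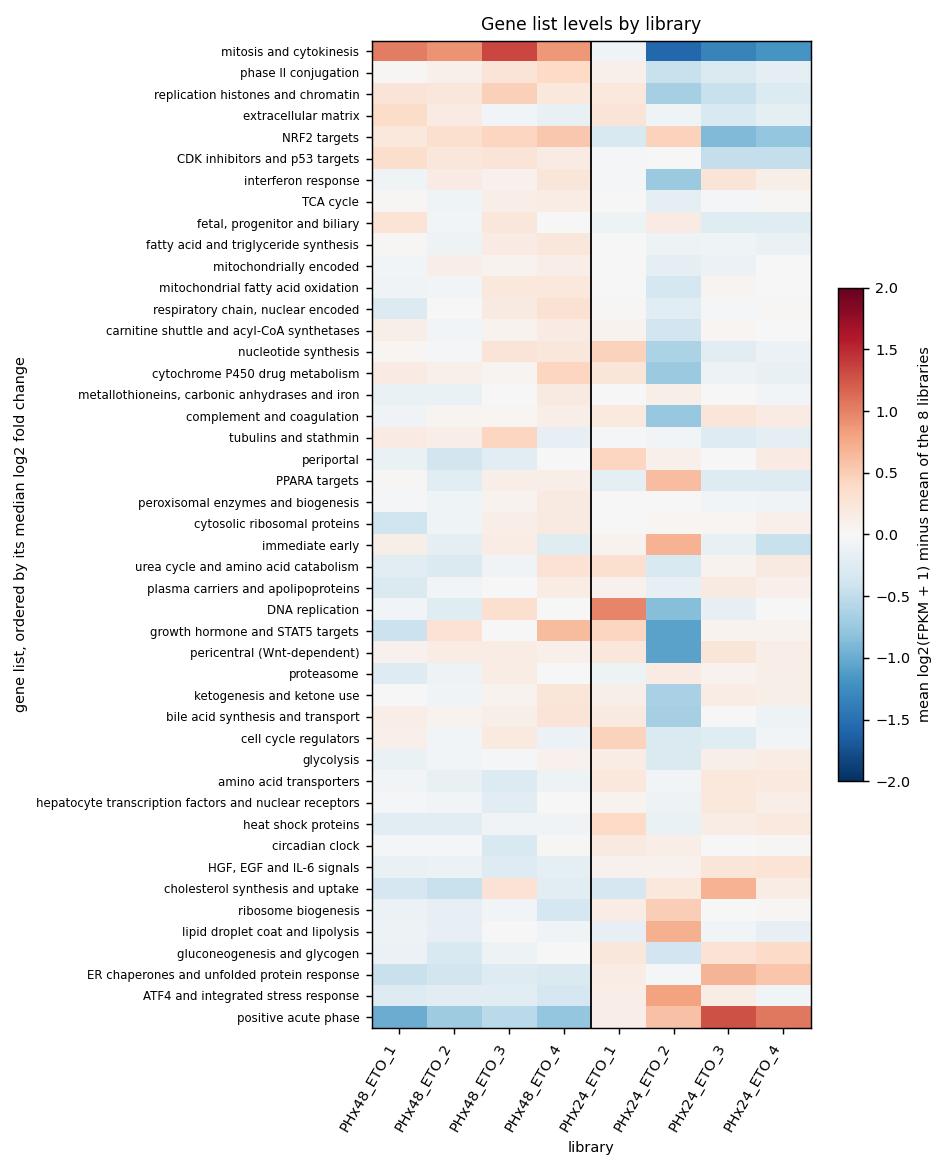
Level of each gene list (rows) in each of the 8 libraries (columns, 48 h on the left) as mean log2(FPKM + 1) minus the mean over the 8 libraries, in red where higher and blue where lower. Mitosis genes are lower in all PHx24_ETO libraries and least so in PHx24_ETO 1, acute phase genes are higher in all of them, and PHx24_ETO 2 departs from its group for pericentral, complement, PPARA and lipid droplet genes.

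Lists of genes around the drug's target had small median changes. Cpt1a, the liver form of the enzyme that etomoxir inhibits (ENSMUSG00000024900, GRCm38 chromosome 19, 3323301 to 3385732), had 93, 66.9, 51.8 and 59.1 FPKM in PHx48_ETO, against 86.9, 83.7, 51.3 and 56.7 FPKM in PHx24_ETO. Values of the groups were interleaved, and the log2 fold change of -0.03 (SE 0.19, adjusted p = 0.951) turned positive under several settings given in the closing section. Cpt2, the inner membrane transferase, averaged 82.3 ± 9.27 FPKM in PHx48_ETO and 86.7 ± 8.11 FPKM in PHx24_ETO (log2 fold change -0.06 (SE 0.14, adjusted p = 0.821)). Of 15 genes for the carnitine shuttle and acyl-CoA synthetases 3 rose (20%, against 7.31% of all genes) and 1 fell (6.67%, against 7.73%). The one that fell was Slc22a5, the carnitine importer of the plasma membrane, with 10.5, 7.24, 7.03 and 7.09 FPKM in PHx48_ETO, against 15.5, 21.9, 11 and 15.6 FPKM in PHx24_ETO. PHx48_ETO 1 was the high library at 48 h and still below all at 24 h (log2 fold change -0.99 (SE 0.20, adjusted p = 0.00123)).

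Of 19 mitochondrial fatty acid oxidation genes 4 rose (21.1%, against 7.31% of all genes) and 1 fell (5.26%, against 7.73%). The median was 0.12, and 1 rose with the 8 libraries fitted alone. Acadm, the medium-chain acyl-CoA dehydrogenase, had 146.1, 130.3, 174.9 and 148.5 FPKM in PHx48_ETO, against 95.9, 57.6, 98.5 and 81.5 FPKM in PHx24_ETO. All 48 h libraries exceeded all 24 h libraries, of which PHx24_ETO 2 was lowest (log2 fold change 0.86 (SE 0.14, adjusted p = 0.000251)). Etfa, which passes electrons from these dehydrogenases to the respiratory chain, rose by 0.65 (adjusted p = 0.00322). Of 31 PPARA targets 2 rose (6.45%, against 7.31% of all genes) and 4 fell (12.9%, against 7.73%). Their median was -0.05, and it was 0.05 with library totals, 0.04 on the TPM scale, 0.06 without PHx24_ETO 2 and 0.03 without PHx48_ETO 2. Without PHx24_ETO 2, 5 rose and 1 fell, and without PHx48_ETO 2, PHx48_ETO 3 or PHx48_ETO 4, 2 fell. Those that rose were Acot1, a cytosolic acyl-CoA thioesterase, with 45.1, 24.3, 36.5 and 26.5 FPKM in PHx48_ETO, against 8.13, 13.4, 2.69 and 2.64 FPKM in PHx24_ETO, and Fabp1, the abundant liver fatty acid binding protein, averaging 6651.2 ± 2028.1 FPKM in PHx48_ETO and 3062.6 ± 504.3 FPKM in PHx24_ETO. Their log2 fold changes were 2.31 (SE 0.40, adjusted p = 0.000292) and 1.13 (SE 0.25, adjusted p = 0.0032), with no overlap. Cyp4a14, a fatty acid hydroxylase strongly induced by PPARA, averaged 452.2 ± 172.0 FPKM in PHx48_ETO and 500.6 ± 115.0 FPKM in PHx24_ETO, against 14.7 ± 19.2 FPKM in sham. Ppara and Pdk4, a brake on glucose oxidation, were not called (log2 fold changes -0.38 and -0.70).

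Of 20 lipid droplet genes 3 rose (15%) and 2 fell (10%), against 7.31% and 7.73% of all genes. No gene fell without PHx24_ETO 2, 4 without PHx24_ETO 1 and 1 without any 1 PHx48_ETO library. Plin4, a droplet coat protein whose gene shares exon bases with Hdgfl2, had 1.37, 1.24, 1.51 and 1.29 FPKM in PHx48_ETO, against 2.34, 64.2, 5.45 and 2.45 FPKM in PHx24_ETO. The log2 fold change was -3.77 (SE 0.95, adjusted p = 0.0079), and -1.32 (adjusted p = 0.238) without PHx24_ETO 2. Cidec, which drives droplet growth, measured 8.72, 8.9, 7.84 and 3.09 FPKM in PHx48_ETO, against 9.9, 163.6, 14.5 and 12.7 FPKM in PHx24_ETO. Its log2 fold change was -2.80 (SE 0.94, adjusted p = 0.0439), and -0.78 (adjusted p = 0.586) without the same library, and the call was also lost without any 1 PHx48_ETO library. Plin4 and Cidec are adipocyte markers too. That list of 11 summed to 162.8 to 312.3 FPKM in PHx48_ETO and 921.1 to 1048.6 FPKM in PHx24_ETO, of which the hepatic gluconeogenic gene Pck1 alone averaged 212.9 and 885.3 FPKM. Lep was at 0 in every PHx24_ETO library. The part of adipose tissue in the 2 falls was not tested. Hsd17b13, a droplet protein of hepatocytes, rose: it had 249.6, 238.3, 328.0 and 271.2 FPKM in PHx48_ETO, against 135.0, 127.5, 98.6 and 102.8 FPKM in PHx24_ETO, with tight and separate groups (log2 fold change 1.24 (SE 0.22, adjusted p = 0.00046)). Mfsd2a, a transporter of lysophospholipids, fell, with a log2 fold change of -3.67 (adjusted p = 0.00463), with 232.5 FPKM in PHx24_ETO 2 and at most 36.9 FPKM in the other PHx24_ETO libraries, and the log2 fold change was -2.28 without PHx24_ETO 2 (adjusted p = 0.0409).

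Of 26 fatty acid and triglyceride synthesis genes 3 rose (11.5%, against 7.31% of all genes), and 1 rose with the 8 libraries fitted alone. Srebf1, the transcription factor that drives them, had 53.6, 47.7, 55.5 and 37.4 FPKM in PHx48_ETO, against 23.3, 11.9, 18.5 and 13 FPKM in PHx24_ETO, and no values overlapped (log2 fold change 1.55 (SE 0.36, adjusted p = 0.00476), with exons shared with Rai1). The desaturase gene Fads1 rose by 0.60 (adjusted p = 0.00323). Of 28 cholesterol genes 2 rose (7.14%) and 6 fell (21.4%, against 7.73% of all genes), with a median of -0.34. The 2 rises were 0 without PHx48_ETO 4 and 1 without PHx24_ETO 2, PHx24_ETO 4 or PHx48_ETO 3. The 6 falls were 1 without PHx24_ETO 3, 2 without PHx48_ETO 1 or PHx48_ETO 2, 3 without PHx48_ETO 4, with library totals or on the TPM scale, and 1 with the 8 libraries fitted alone. Hsd17b7, a late step of the pathway, had 8.26, 5.97, 11.7 and 7.95 FPKM in PHx48_ETO, against 15.3, 30.3, 26.9 and 19.5 FPKM in PHx24_ETO, and kept apart (log2 fold change -1.43 (SE 0.32, adjusted p = 0.00313)).

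Detoxifying genes were among the most abundant that rose. Cyp3a11, the main mouse drug-oxidizing cytochrome of its family (ENSMUSG00000056035, GRCm38 chromosome 5, 145854426 to 145879964), had 1156.1, 887.9, 1055.8 and 1163.3 FPKM in PHx48_ETO, against 534.3, 372.9, 193.6 and 255.9 FPKM in PHx24_ETO. The 48 h libraries were close together and all above the 24 h libraries (log2 fold change 1.66 (SE 0.25, adjusted p = 8.3e-05)). The related Cyp3a59 had 39.8, 26.5, 20.1 and 28 FPKM in PHx48_ETO, against 13.3, 11.4, 10.2 and 9.63 FPKM in PHx24_ETO (log2 fold change 1.38 (SE 0.22, adjusted p = 0.000168)). Close family members can share reads. Of 31 drug-metabolizing cytochrome P450 genes 7 rose (22.6%, against 7.31% of all genes) and 4 fell (12.9%, against 7.73%), and 7 fell without PHx24_ETO 2. Cyp2c55 rose by 2.55 and Cyp2a4, a steroid hydroxylase, by 3.66 on the log2 scale (adjusted p = 0.00401 and 0.0103). Both calls were lost with the 8 libraries fitted alone (adjusted p = 0.0971 and 0.0531).

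Targets of NRF2, the oxidative defence factor, rose in 10 of 25 cases (40%, against 7.31% of all genes), with a median of 0.42. The list was mixed: 17 of the 25 had a positive log2 fold change. At an unadjusted p under 0.05, 13 were higher and 3 lower. With the 8 libraries fitted alone 6 rose, and without PHx24_ETO 1, 2 fell. The glutathione transferases led: Gsta2 had 21.8, 27.3, 38.2 and 63.9 FPKM in PHx48_ETO, against 5.2, 9.8, 0.933 and 0.517 FPKM in PHx24_ETO. PHx24_ETO 3 and PHx24_ETO 4 were lowest and no values overlapped (log2 fold change 3.20 (SE 0.66, adjusted p = 0.00153)). Gstm3 measured 574.8, 494.1, 587.1 and 826.0 FPKM in PHx48_ETO, against 147.1, 192.4, 33 and 53.6 FPKM in PHx24_ETO, with the same lower libraries (log2 fold change 2.55 (SE 0.55, adjusted p = 0.00222)). Gstm1 averaged 1716.7 ± 468.9 FPKM in PHx48_ETO and 586.3 ± 258.7 FPKM in PHx24_ETO, and Gstp1 1813.4 ± 164.2 FPKM in PHx48_ETO and 864.1 ± 164.2 FPKM in PHx24_ETO (SD, n = 4 each). Their log2 fold changes were 1.56 (SE 0.29, adjusted p = 0.000612) and 1.08 (SE 0.19, adjusted p = 0.000325). The list level in PHx24_ETO 2, 6.05, was within the 48 h range of 5.80 to 6.13, while that of the other 24 h libraries was 4.71 to 5.29, as mean log2(FPKM + 1).

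Phase II conjugation genes, which attach sugars, sulfate or glutathione to drugs, rose in 10 of 29 cases (34.5%, against 7.31% of all genes). They fell in 2 (6.9%, against 7.73%), with a median of 0.65, and 5 rose with the 8 libraries fitted alone. At an unadjusted p under 0.05, 15 were higher and 4 lower. Ugt1a9, a glucuronosyltransferase, rose by 2.53 (adjusted p = 0.000111), but shares exons with its neighbours of the Ugt1a locus. Nnmt, which methylates nicotinamide, fell: it had 47.9, 44.1, 85.6 and 79.8 FPKM in PHx48_ETO, against 213.0, 175.7, 297.1 and 308.1 FPKM in PHx24_ETO. The groups were far apart (log2 fold change -1.94 (SE 0.26, adjusted p = 2.37e-05)). Of the nuclear receptors that switch on such genes, Nr1i3 (CAR) fell, with a log2 fold change of -1.16 (adjusted p = 0.000178, with exons shared with Tomm40l), and Nr1i2 (PXR) fell with one of -0.87 (adjusted p = 0.015), a call lost without PHx24_ETO 2, where the value was -0.50.

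**Figure D4:**
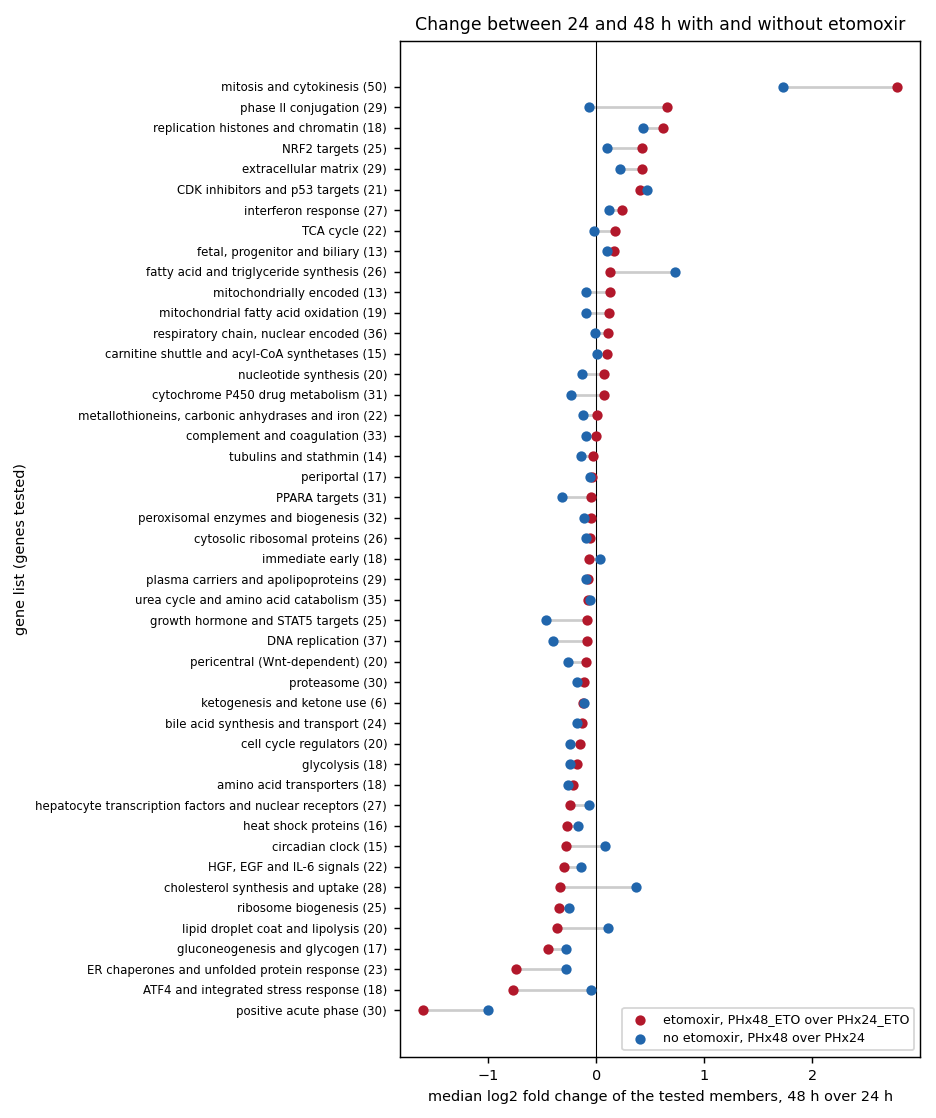
Median log2 fold change, 48 h over 24 h (horizontal axis), of the tested members of each gene list (vertical axis) with etomoxir (red) and without it (blue). Mitosis is highest and acute phase lowest in both, and the cholesterol list lies at -0.34 with etomoxir and 0.37 without.

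Secreted and metabolic hepatocyte genes changed singly. Alb, the albumin gene, took 7.3 ± 0.756% of all counts in PHx48_ETO and 3.71 ± 0.721% in PHx24_ETO (SD, n = 4 each), against 5.66 ± 1.98% in sham. The exact two-sided permutation p was 0.0286, the smallest that 4 against 4 libraries can give. Its FPKM were 30619.0, 24666.9, 31104.3 and 31855.3 FPKM in PHx48_ETO, against 15543.9, 19156.7, 15253.6 and 14938.4 FPKM in PHx24_ETO. The groups did not overlap (log2 fold change 0.88 (SE 0.27, adjusted p = 0.0277)), and the call was lost without 5 of the 8 libraries, PHx24_ETO 3, PHx24_ETO 4, PHx48_ETO 1, PHx48_ETO 3 or PHx48_ETO 4. The 100 genes with most counts took 37.7 ± 1.08% in PHx48_ETO and 41.4 ± 3.22% in PHx24_ETO, and mitochondrially encoded genes 5.23 ± 0.417% and 4.53 ± 0.187% (exact permutation p = 0.0571 for each).

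Apoa4, an apolipoprotein of fat-laden particles, had 186.3, 165.0, 107.5 and 70.3 FPKM in PHx48_ETO, against 1115.0, 1182.8, 1168.9 and 1465.1 FPKM in PHx24_ETO. The 24 h libraries were tight and far above every 48 h library (log2 fold change -3.20 (SE 0.57, adjusted p = 0.000405)), and the sham level was 44.1 ± 46.0 FPKM. Apoa4 is also a gut marker, and the 11 genes of that list summed to 219.7 to 312.8 FPKM in PHx48_ETO and 1251.4 to 1601.8 FPKM in PHx24_ETO, Apoa4 included. Cdx1 and Sis were at 0 in all 8 libraries and Cdx2 in all of PHx24_ETO. The part of gut tissue in the fall was not tested. Apoa5, which lowers plasma triglyceride, averaged 232.4 ± 17.9 FPKM in PHx48_ETO and 705.8 ± 123.4 FPKM in PHx24_ETO (log2 fold change -1.59 (SE 0.20, adjusted p = 1.1e-05)). Mbl2, a lectin that starts complement activation, rose: it had 489.3, 634.3, 550.1 and 664.5 FPKM in PHx48_ETO, against 231.1, 30.4, 117.1 and 124.0 FPKM in PHx24_ETO, with no overlap (log2 fold change 2.23 (SE 0.36, adjusted p = 0.000168)). In the complement and coagulation list 3 of 33 genes rose (9.09%, against 7.31% of all genes) and 5 fell (15.2%, against 7.73%). Without PHx48_ETO 4, 1 rose. The falls were 9 without PHx24_ETO 2, 2 without PHx24_ETO 3 or PHx24_ETO 4, and 3 without PHx48_ETO 1, PHx48_ETO 3 or PHx48_ETO 4.

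Single genes of glucose and amino acid handling changed in both directions. Pck1, the rate-setting enzyme of gluconeogenesis, had 225.3, 146.2, 184.0 and 296.3 FPKM in PHx48_ETO, against 943.5, 808.7, 904.7 and 884.3 FPKM in PHx24_ETO. The 24 h libraries were tight and the 48 h libraries all lower (log2 fold change -2.04 (SE 0.43, adjusted p = 0.00203)). Of 17 gluconeogenesis and glycogen genes 3 rose (17.6%, against 7.31% of all genes) and 5 fell (29.4%, against 7.73%). The falls were 3 without PHx24_ETO 3, PHx24_ETO 4, PHx48_ETO 1 or PHx48_ETO 3. Slc37a4, the glucose-6-phosphate transporter, fell, with a log2 fold change of -1.35 (adjusted p = 0.00153).

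Mat1a, which makes the methyl donor S-adenosylmethionine in mature liver, had 145.5, 127.0, 272.7 and 363.4 FPKM in PHx48_ETO, against 841.2, 1770.9, 1333.5 and 1240.9 FPKM in PHx24_ETO. No values overlapped (log2 fold change -2.50 (SE 0.36, adjusted p = 5.14e-05)). Tat, which starts tyrosine breakdown and responds to glucocorticoids, fell, with a log2 fold change of -1.39 (adjusted p = 0.00899). In the urea cycle and amino acid catabolism list 4 of 35 rose and 4 fell (11.4% each), against 7.31% and 7.73% of all genes. The rises were 2 without PHx24_ETO 3 or PHx24_ETO 4 and 1 without PHx48_ETO 4.

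Of 22 genes for HGF, EGF and IL-6 signals 6 fell (27.3%, against 7.73% of all genes), and 3 fell without PHx24_ETO 3, PHx24_ETO 4, PHx48_ETO 1 or PHx48_ETO 2 and 2 without PHx48_ETO 3. Igfbp1, a binding protein of insulin-like growth factors, had 37.2, 11.5, 47.9 and 17 FPKM in PHx48_ETO, against 96.9, 296.0, 176.4 and 130.6 FPKM in PHx24_ETO without overlap (log2 fold change -2.61 (SE 0.85, adjusted p = 0.0386)), a call lost without any library but PHx24_ETO 1. Kupffer cell markers, genes of the resident liver macrophage, rose in 4 of 13 cases (30.8%, against 7.31% of all genes), with a median of 0.78. Their summed level was 133.3 to 274.6 FPKM in PHx48_ETO (median 143.5) and 89.1 to 150.6 FPKM in PHx24_ETO (median 119.9). These ranges overlapped, and sham livers had 170.4 to 259.5 FPKM. Without etomoxir none was called and the median was -0.36. The difference between the time changes had an unadjusted p under 0.05 for 11 of the 13, none passing adjustment. The 4 were Folr2, Clec4f, Slc40a1 and Csf1r, named after their values were seen. The count was 1 without PHx24_ETO 2, PHx24_ETO 3, PHx24_ETO 4 or PHx48_ETO 4, 7 without PHx24_ETO 1, and 1 with the 8 libraries fitted alone.

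Without etomoxir, the same step in time gave 766 higher genes (6.19%) and 669 lower genes (5.41%). That comparison shares no library with the one under etomoxir. Across the 12376 genes the 2 sets of log2 fold changes had a Pearson correlation of 0.489, a description over genes that are not independent. Of the 905 genes that rose under etomoxir 429 (47.4%) also rose without it, which is 56.0% of the untreated list. Of the 957 that fell 360 (37.6%) also fell without it, 53.8% of the untreated list, and no gene was called in opposite directions.

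The mitosis list rose in 36 of 50 genes without etomoxir, with a median of 1.73, and the acute phase list fell in 17 of 30, with a median of -1.0. Ccnb2 averaged 49.5 ± 9.09 FPKM in PHx48 and 4.83 ± 3.38 FPKM in PHx24 (SD, n = 7 each), a log2 fold change of 3.36 (adjusted p = 5.6e-06). The difference between the 2 time changes had an unadjusted p under 0.05 for 12 of the 50 mitosis genes, and its sign was positive for all 50. None passed adjustment in edgeR. In DESeq2 it passed for Cdkn3 (adjusted p = 0.00797) and not for Ccnb2 (0.172) or Ccnb1 (0.576). Cholesterol genes rose in 9 of 28 cases without etomoxir. Their difference had an unadjusted p under 0.05 in 17 of 28 cases, none passing adjustment in edgeR, against 1064 of all genes (8.6%). In the fatty acid synthesis list 12 of 26 rose without etomoxir and 3 with it. The difference had an unadjusted p under 0.05 in 10 of 26 cases, and passed for none after adjustment in edgeR. Its sign was negative for 22 and positive for 4, with a median of -0.54.

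Tested directly with edgeR, the change between 24 and 48 h differed with etomoxir for 2 genes (0.0162%). Cyp3a11 averaged 947.6 ± 209.0 FPKM in PHx48 and 1105.7 ± 170.0 FPKM in PHx24 (SD, n = 7 each), a log2 fold change of -0.23 (adjusted p = 0.478), and the difference was 1.89 (adjusted p = 0.0121). For Cyp3a59 the untreated change was -0.39 (adjusted p = 0.124) and the difference 1.77 (adjusted p = 0.0116). The low group in both genes was PHx24_ETO, below sham as well (735.0 ± 172.6 FPKM and 18.6 ± 3.58 FPKM). DESeq2 called 42 genes, 20 higher and 22 lower. Among the 20 were Cdkn3, Gstm3 and Ugt1a9 (DESeq2 adjusted p = 0.00797, 0.0363 and 0.0304). The count rested on single 24 h libraries: it was 239 without PHx24_ETO 1 and 0 without PHx24_ETO 4, where Cyp3a11 had an adjusted p of 0.0763 and Cyp3a59 of 0.0724.

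**Figure D5:**
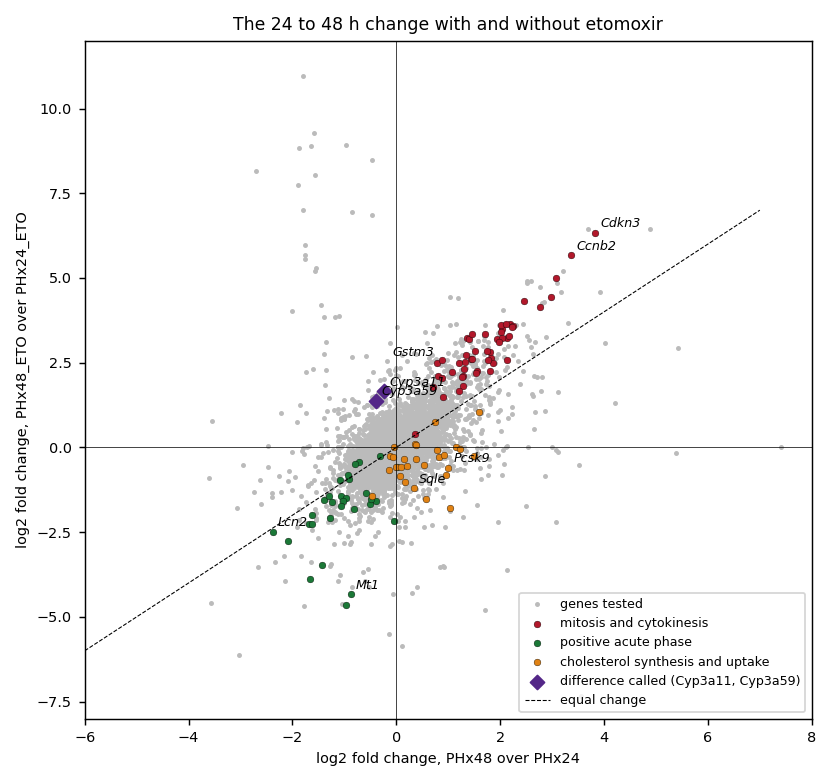
Log2 fold change of each tested gene with etomoxir, PHx48_ETO over PHx24_ETO (vertical axis), against that without it, PHx48 over PHx24 (horizontal axis), with 3 lists and the 2 genes of the called difference coloured. Mitosis genes lie above the line of equal change on the positive side, cholesterol genes mostly below it, and Cyp3a11 and Cyp3a59 stand above 0 with etomoxir and below 0 without.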

How the data were processed

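TRIzol-extracted liver RNA went into NEBNext Ultra libraries of polyA RNA (per the labels). Tools named by the submitters' processing notes are DESeq2 1.20.0, featureCounts 1.5.0-p3, HISAT2 2.0.5, fastp and CASAVA 1.8, and the builds GRCm38 and mm10. The sources used here give neither annotation release nor strand setting, so overlapping genes and near-identical paralogs can share reads. For 54532 genes the deposited table holds raw read counts made by the authors. It also holds FPKM computed by the authors: tested on the table, each is the count over gene length and over a size factor of that library.

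Samples were grouped by their titles, and no label gives a batch. Counts of all 27 libraries were fitted with edgeR 4.0.16 in R 4.3.3 (5 groups, TMM, quasi-likelihood F test, Benjamini-Hochberg adjustment over the 12376 tested genes, call at an adjusted p under 0.05). The SE is the log2 fold change over the square root of F. The biological coefficient of variation was 0.266. The procedure was also run on simulated counts with known changes. That simulation held no outlying libraries and balanced rises and falls, so it does not cover the outlying libraries or the dependence on scaling described here. Alternatives were DESeq2 1.42.0, limma 3.58.1 on log2(FPKM + 1), log2(FPKM + 0.1) and log2(TPM + 1), library totals, other size factors and filters, the 8 libraries alone, a replicate block, and leaving out libraries. A further one omitted 4 libraries without etomoxir that held transcripts of other tissues. It kept PHx48_ETO 4, so it does not address the muscle transcripts there. Shares of counts were compared with exact permutation tests. Fold changes stand as 48 h over 24 h.

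Named genes were called genes whose groups did not overlap and whose name is not a predicted model: the 12 largest changes each way, the 6 most abundant each way changed at least 1.5-fold and up to 3 per gene list. A list of cell cycle, acute phase and fatty acid genes was added whatever their change, as were genes called for the difference. The comparison, lists and rule were chosen with earlier results of these data known. Gene lists carry no test of their own. Promoters came from RefSeq (GRCm38.p6) for 8722 of the tested genes. Some genes that the rule named are not reported here.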

Additional observations from a re-analysis of the deposited data

Results flagged for a closer look

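Within PHx48_ETO and PHx24_ETO, named genes and list levels were searched for a highest or lowest library far from the other 3 of its group by Dixon's criterion. Of 366 sets of 4 values 48 met it. Chance gives about 1 in 20 for independent, normally spread values. These sets are correlated and mostly picked by their change, so that rate is no measure for them. PHx24_ETO 2 gave 27 of them, PHx24_ETO 1 gave 14, PHx48_ETO 3 gave 4, PHx48_ETO 1 gave 2 and PHx48_ETO 4 gave 1. No cause was tested.

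PHx24_ETO 2 stood above its group for the lipid droplet and lipid genes Plin4 (64.2 FPKM), Cidec (163.6 FPKM), Mfsd2a (232.5 FPKM), Pex11a (95.6 FPKM), Pex19 (72.8 FPKM) and Pdk4 (71.7 FPKM). It was also high for Alb (19156.7 FPKM), Apoa5 (889.8 FPKM), Abcc3 (83.5 FPKM), Nr1i2 (104.2 FPKM), Sik1 (167.3 FPKM), Cdkn1a (42.7 FPKM), Slc6a9 (10.3 FPKM), Psat1 (13 FPKM) and Cntnap1 (9.41 FPKM). The same held for the ribosome biogenesis genes Mybbp1a (33.7 FPKM), Nop2 (21.0 FPKM) and Rrp12 (8.01 FPKM), while Ptms was low (146.2 FPKM). As mean log2(FPKM + 1), its list levels were high for PPARA targets (6.0) and lipid droplet genes (4.84). They were low for fatty acid oxidation (5.54), ketogenesis (4.80), glycolysis (4.63), complement and coagulation (5.74), pericentral genes (3.19) and amino acid transporters (3.60).

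PHx24_ETO 1 stood above its group for the division genes Mki67 (4.54 FPKM), Cdca3 (5.51 FPKM), Knstrn (1.10 FPKM), Ccnb1 (1.91 FPKM), Ccnb2 (2.81 FPKM), Foxm1 (2.68 FPKM) and Pimreg (0.0466 FPKM). The same held for H1fx (0.387 FPKM), Lockd (0.336 FPKM), Obox8 (0.101 FPKM), Phlda3 (4.15 FPKM) and Car3 (107.9 FPKM). PHx24_ETO 1 was low for Fga (2064.8 FPKM) and Fgb (1543.6 FPKM). For Pimreg and Obox8 the other 3 libraries were at 0.

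At 48 h, PHx48_ETO 3 was high for Lcn2 (259.8 FPKM) and Mki67 (17.4 FPKM) and low for Acsm5 (26.1 FPKM) and Phlda3 (5.85 FPKM). PHx48_ETO 1 was low for Hp (1832.0 FPKM) and high for Slc22a5 (10.5 FPKM), and PHx48_ETO 4 was low for Hist1h3g (2.36 FPKM). The tested difference between the time changes with and without etomoxir was 1.89 for Cyp3a11 and 1.77 for Cyp3a59 on the log2 scale.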

How the results depend on the processing

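Over the left-out etomoxir libraries, 663 to 1142 genes were higher and 643 to 1114 lower in PHx48_ETO. Over left-out libraries of all 4 hepatectomy groups the untreated step gave 615 to 1026 higher and 519 to 923 lower genes, and the difference 0 to 239 genes. Library totals gave 1376 higher and 474 lower under etomoxir and 1453 and 320 without it. On log2(TPM + 1) limma gave 444 lower genes under etomoxir, 1691 higher and 264 lower without it, and 1 gene for the difference. DESeq2 gave 42 for the difference. The 8 libraries alone gave 336 higher and 284 lower, and with the replicate number as a block 258 and 140. Not every named call lost with the 8 libraries alone is marked above. No label says whether the numbers pair libraries. Deviations of same-numbered libraries correlated at -0.0897, 0.0166, -0.0358 and 0.1351, and those of other pairs at -0.2456 to 0.2067. So few libraries cannot decide it. Of 126 named genes called, 94 were called without each etomoxir library in turn. The 6 that changed sign in any setting were not called. Cpt1a was 0.07 with library totals, 0.05 on TPM, and -0.22 to 0.10 over left-out libraries (0.10, 0.07, 0.09 and 0.03 without PHx24_ETO 1, PHx24_ETO 2, PHx48_ETO 3 and PHx48_ETO 4). Cpt2 was 0.04 with library totals, 0.01 on TPM and -0.11 to 0.00 over left-out libraries, 0.00 without PHx24_ETO 2 or PHx48_ETO 2. Mcm5 was 0.27 on log2(FPKM + 1), 0.37 on log2(FPKM + 0.1), 0.42 on TPM, 0.35 under the block and -0.59 to 0.72 over left-out libraries, highest without PHx24_ETO 1. Pdk4 was 0.07, 0.11, 0.18 and 0.42 under these 4 settings and -1.15 to 1.38 over left-out libraries, highest without PHx24_ETO 2. Over left-out libraries Cyp4a14 was -0.30 to 0.06, highest without PHx48_ETO 2, and Ccnd1 -0.51 to 0.07, highest without PHx48_ETO 4. The cause of these changes was not tested. Pimreg, Obox8 and Hist1h3g, with 2, 2 and 4 counts over all PHx24_ETO libraries, are limited by depth at 24 h.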

Other observations

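Smaller groups held single changes. Per2, a repressor of the circadian clock, had 3.1, 2.95, 2.22 and 2.07 FPKM in PHx48_ETO, against 5.32, 8.62, 4.6 and 3.5 FPKM in PHx24_ETO, and was the 1 of 15 clock genes called by edgeR, against 2 by DESeq2 and 2 without PHx24_ETO 1, PHx24_ETO 2 or PHx48_ETO 4 (log2 fold change -1.08 (SE 0.27, adjusted p = 0.00722)). Junb, an immediate early transcription factor whose gene shares exon bases with Prdx2, had 19.9, 19.4, 21 and 20.7 FPKM in PHx48_ETO, against 33.5, 52.7, 54.9 and 36.7 FPKM in PHx24_ETO (log2 fold change -1.12 (SE 0.35, adjusted p = 0.0289)), a call lost without any 1 library but PHx24_ETO 1 and PHx24_ETO 4. Ier5, an immediate early growth factor response gene, rose by 0.97 (adjusted p = 0.00311). Of that list of 18, 1 gene rose and 1 fell (5.56% each), against 7.31% and 7.73% of all genes. Sik1, a kinase induced by cyclic AMP, fell, with a log2 fold change of -2.85 (adjusted p = 0.0133), which was -1.25 without PHx24_ETO 2 (adjusted p = 0.207).

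Fn1, the gene of fibronectin, a matrix protein that hepatocytes also secrete into plasma, had 118.9, 105.8, 89.4 and 80 FPKM in PHx48_ETO, against 160.6, 225.4, 323.7 and 343.3 FPKM in PHx24_ETO, with no overlap (log2 fold change -1.40 (SE 0.21, adjusted p = 7.63e-05)). Mmp2 and Lum, matrix genes of mesenchymal cells, rose by 1.57 and 1.0 on the log2 scale (adjusted p = 0.0157 and 0.018). The call of Mmp2 was lost without PHx24_ETO 2, and that of Lum with the 8 libraries fitted alone (adjusted p = 0.114). Of 29 matrix genes 2 rose (6.9%, against 7.31% of all genes) and 1 fell (3.45%, against 7.73%), with 8 rises without PHx24_ETO 1 and 1 without PHx24_ETO 2. Scara5, a ferritin receptor of mesenchymal cells, fell, averaging 0.723 ± 0.162 FPKM in PHx48_ETO and 4.46 ± 2.56 FPKM in PHx24_ETO (log2 fold change -2.60 (SE 0.63, adjusted p = 0.00562)). Serpinb8, an intracellular protease inhibitor, and Ces1a, a carboxylesterase, were among the strongest rises of called genes. Serpinb8 averaged 3.95 ± 0.673 FPKM in PHx48_ETO and 0.164 ± 0.0781 FPKM in PHx24_ETO (log2 fold change 4.59), and Ces1a averaged 1.55 ± 0.459 FPKM in PHx48_ETO and 0.0488 ± 0.0566 FPKM in PHx24_ETO (log2 fold change 4.92).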
